A study of Rattus norvegicus with 20 samples.

Results

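A set of 10 rat genes that are typical of astrocytes are described here across 4 groups of cultured progenitor cells and their treated derivatives: Slc1a2, Slc1a3, Glul, Aldoc, Aldh1l1, Aqp4, Gja1, Slc4a4, Mt3 and Agt. Every probe set annotated to these symbols was taken, whatever its value. That gave 20 of 8740 probe sets that are not array controls, and all 10 genes out of 4736 named ones had at least 1. Slc1a2, Slc1a3 and Glul had 4 probe sets each, Aldoc had 2, and the others had 1. The probe sets of a gene are called A to D, from the brightest to the dimmest by mean intensity. They are not independent measurements, because Slc1a2 C and D, Slc1a3 C and D, and Glul B and C were each designed from a shared source sequence. The identifiers of 6 of the 20 (Slc1a3 B, Glul A, Glul D, Gja1, Aldoc A and Aldoc B) carry the suffix of probe sets that can match several sequences.

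Total RNA was hybridised to 20 Affymetrix rat arrays. The labels name high-density progenitors (HD, 6 arrays), low-density CCg progenitors (LD, 4 arrays), LD cells given FBS, which are labelled astrocytes (FBS, 6 arrays), and LD cells given RA/Fsk, which are labelled neurons (RA/Fsk, 4 arrays). FBS usually stands for fetal bovine serum, RA for retinoic acid and Fsk for forskolin, which raises cyclic AMP. CCg is not spelled out, and the HD labels do not mention it, so density and origin cannot be told apart in any comparison with HD. Strain, age, dose and time are not given. Arrays of a group with the same number were averaged and are called a culture, with 3 cultures in HD (1, 2 and 4), 3 in LD (1, 3 and 4), 4 in FBS and 4 in RA/Fsk. Nothing in the labels says that the numbers are separate cultures, so the p-values measure only the spread between these samples.

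Astrocytes clear glutamate that neurons release and recycle it. Slc1a3 (GLAST) and Slc1a2 (GLT-1) encode the sodium-coupled transporters that take glutamate up, and Glul encodes glutamine synthetase, which converts it to glutamine. Slc1a3 appears early in radial glia and Slc1a2 later, as astrocytes mature. Aldoc encodes the brain form of the glycolytic enzyme aldolase, and Aldh1l1 a folate enzyme widely used as an astrocyte marker. Aqp4 is the water channel of astrocyte endfeet, Gja1 the gap junction protein connexin 43, and Slc4a4 a sodium bicarbonate cotransporter. Mt3 encodes a metallothionein enriched in brain, which binds zinc and copper, and Agt encodes angiotensinogen, the secreted precursor of the angiotensins, which astrocytes make in the brain.

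Promoters of 4 of the 5 genes that rose with serum are shown with the short motifs found in them, since cyclic AMP, retinoic acid, serum and metal ions each act through known motifs. RefSeq start sites (build GRCr8) were matched by symbol for 9 of the 10 genes, with 14 start sites in all, and the 250 bases before each start were read. Capitals mark every match on either strand to the cyclic AMP response element TGACGTCA, its core TGACG (which lies inside the full element), the nuclear receptor motif AGGTCA, the CArG box of serum response factor, the metal response elements TGCACNC and TGCGCNC, the GC box GGGCGG and the TATA box TATAAA. The windows of the 3 Slc1a3 start sites overlap, and that of the most upstream start is shown, and both Glul start sites are shown.
Slc1a3, chr2:59557809-59558058, minus strand: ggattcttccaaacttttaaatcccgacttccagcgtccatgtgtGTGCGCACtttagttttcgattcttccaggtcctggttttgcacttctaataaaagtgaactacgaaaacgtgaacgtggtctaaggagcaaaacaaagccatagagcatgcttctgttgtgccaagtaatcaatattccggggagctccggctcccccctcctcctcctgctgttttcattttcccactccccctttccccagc
Glul, first start, chr13:68519250-68519499, plus strand: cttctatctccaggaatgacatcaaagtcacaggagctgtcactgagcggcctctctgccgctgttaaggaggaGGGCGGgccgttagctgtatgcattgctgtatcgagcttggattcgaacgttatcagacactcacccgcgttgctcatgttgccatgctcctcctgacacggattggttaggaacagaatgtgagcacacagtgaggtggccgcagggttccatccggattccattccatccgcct
Glul, second start, chr13:68575816-68576065, plus strand: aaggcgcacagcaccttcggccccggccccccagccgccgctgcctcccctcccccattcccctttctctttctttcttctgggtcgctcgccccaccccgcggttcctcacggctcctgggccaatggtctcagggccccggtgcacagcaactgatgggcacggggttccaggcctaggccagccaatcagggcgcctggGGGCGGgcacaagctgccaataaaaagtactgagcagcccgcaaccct
Aldoc, chr10:63715294-63715543, plus strand: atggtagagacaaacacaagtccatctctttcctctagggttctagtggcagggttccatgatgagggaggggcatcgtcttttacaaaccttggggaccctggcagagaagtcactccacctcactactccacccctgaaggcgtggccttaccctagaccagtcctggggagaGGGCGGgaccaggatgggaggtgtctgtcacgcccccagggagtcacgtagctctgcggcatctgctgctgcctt
Mt3, chr19:10856081-10856330, minus strand: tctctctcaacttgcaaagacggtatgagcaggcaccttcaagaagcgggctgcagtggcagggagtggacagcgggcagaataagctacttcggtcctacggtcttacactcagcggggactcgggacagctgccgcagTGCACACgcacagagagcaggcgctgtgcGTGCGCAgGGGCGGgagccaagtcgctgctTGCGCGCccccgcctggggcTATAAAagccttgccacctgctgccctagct

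Mt3 held 5 matches in this window, 3 of them metal response elements, besides a GC box and a TATA box. TGCACNC was found in 10.3% of 33465 rat promoters of the same length, TGCGCNC in 11.8%, the GC box in 30.5% and the TATA box in 12.9%. In Slc1a3 the palindrome GTGCGCAC gave a TGCGCNC match on each strand, overlapping each other. Both Glul windows and the Aldoc window held 1 GC box and no other match. TGACGTCA (1.59% of all promoters), AGGTCA (14.1%) and the CArG box (1.50%) were not found in any of the 14 windows, and TGACG (18.2%) was found in that of Gja1, in 2 places. A match describes the letters only, and no match says nothing about a factor.

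Levels are the deposited linear intensities, which differ between probe sets for reasons of probe design, so each probe set was compared only with itself. Array medians ran from 40.8 to 57.25 and lower quartiles from 10.3 to 16.4. The 4 Glul, both Aldoc and the Mt3 probe sets lay above the array median on all 20 arrays. Slc1a3 A did so on 19, Slc1a3 B on 12, Agt on 10, Slc1a2 A on 6 and Slc1a2 B on 1. The other 8 (Slc1a2 C and D, Slc1a3 C and D, Slc4a4, Aqp4, Gja1 and Aldh1l1) lay below it on every array, and the antisense control probe sets, which should not hybridise, had medians of 11.5 to 46.6. Differences are given in log2(intensity + 4.99) units with their standard error (SE), folds are on the same scale, and a probe set is said to rise or fall where limma's adjusted p over all 8740 probe sets was under 0.05.

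Of the 10 genes, Aldoc was the one higher in HD than in LD. In serum-treated cultures 3 of the 4 Slc1a3 probe sets and all those of Glul, Aldoc, Mt3 and Agt were higher than in LD. In RA/Fsk all probe sets of Glul and Aldoc were higher than in LD. Aldoc A, but not Aldoc B, was higher in RA/Fsk than in FBS, while the same 3 Slc1a3 probe sets, Mt3 and Agt were lower. The probe sets of Slc4a4, Aqp4, Gja1 and Aldh1l1 passed in none of the 6 comparisons, which share groups with each other and so are not independent.

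**Figure D1:**
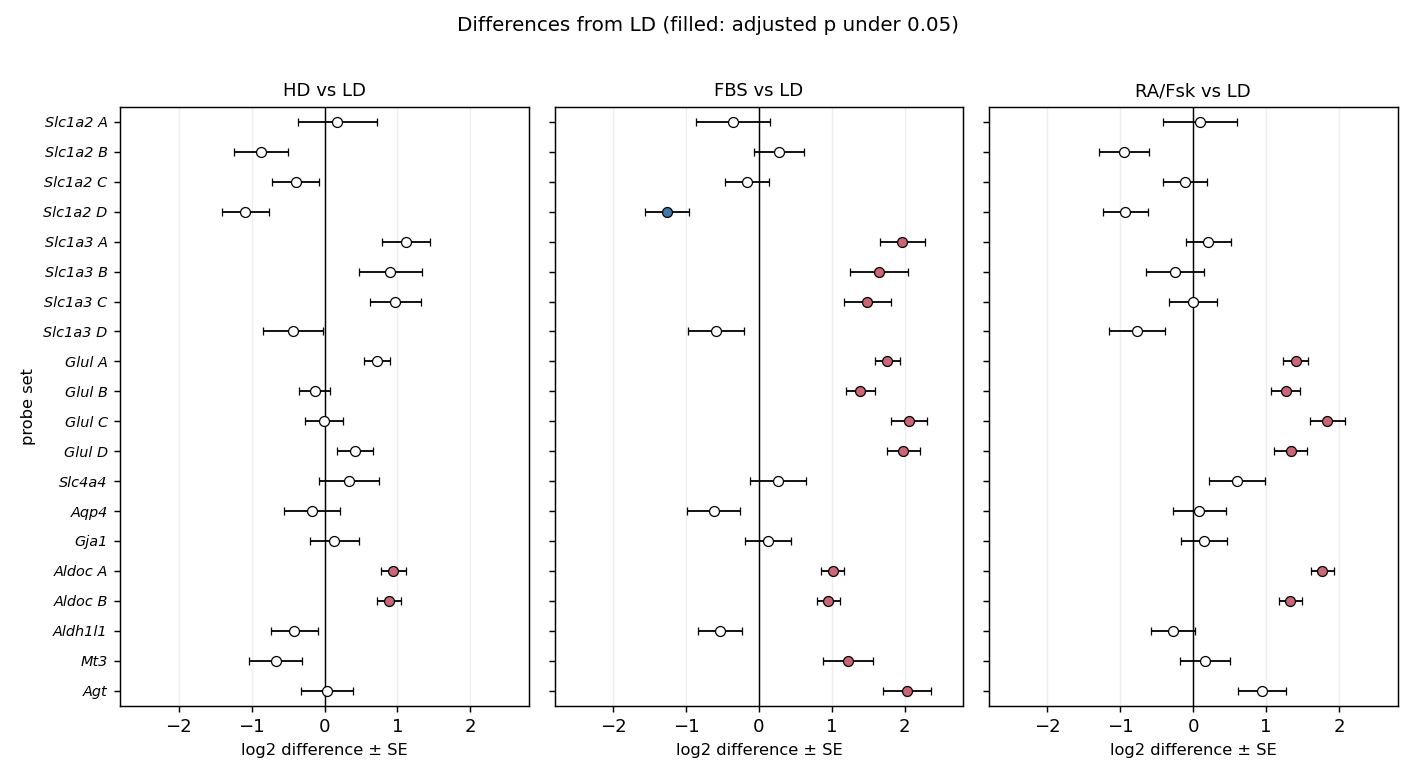
Log2 difference from LD of the 20 probe sets in HD, FBS and RA/Fsk cultures (points, with SE as bars). Filled points passed at an adjusted p under 0.05, red for higher and blue for lower, and the 11 red points under FBS lie between 0.95 and 2.06.

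Against LD, 2 of the 20 probe sets rose in HD and 0 fell, where 0.435% of all probe sets rose and 0.423% fell. In FBS 11 rose and 1 fell, against 13.2% and 12.3% of all probe sets. In RA/Fsk 6 rose and 0 fell, against 4.71% and 3.54%. Relative to HD, 7 rose in FBS and 0 fell (all probe sets 11.3% and 9.70%), and 5 rose in RA/Fsk and 0 fell (4.85% and 5.32%). Between the treatments, 1 was higher in RA/Fsk than in FBS and 7 were lower, against 8.27% and 10.1%. The share of higher calls among all called probe sets depended on the scaling: with each array centred on its median it moved from 53.7% to 38.8% for FBS against HD, where the median of all probe sets moved from 0.03 to -0.16 log2, and from 45.0% to 55.3% for RA/Fsk against FBS, where that median moved from 0.06 to 0.16. The median difference of the 20 probe sets, with that of all probe sets beside it, was, relative to LD, 0.09 and -0.08 in HD, 0.98 and -0.09 in FBS, and 0.16 and -0.05 in RA/Fsk. It was 0.38 and 0.03 for FBS against HD, 0.26 and 0.07 for RA/Fsk against HD, and -0.15 and 0.06 for RA/Fsk against FBS. RNA of whole cultures was measured, so more cells that express a gene and more RNA per cell cannot be told apart.

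Slc1a3, the early glial glutamate transporter, was highest in the serum-treated cultures. Slc1a3 A read 342, 369, 359 and 361 in FBS, 240.0, 111 and 281 in HD, 62.5, 109 and 98.4 in LD, and 73, 162, 74.2 and 120.2 in RA/Fsk. All 4 FBS cultures lay above every other culture and within a narrow range, while the HD cultures spread widely because culture 2 read low. Slc1a3 A rose from LD to FBS by 1.97 ± 0.31 (SE, adjusted p = 0.000117), a 3.91-fold difference. It was lower in RA/Fsk than in FBS by -1.76 ± 0.28 (adjusted p = 0.000268), and RA/Fsk and LD overlapped, with a difference of 0.20 (95% interval -0.45 to 0.86). Ordered by mean, FBS stood above HD, HD above RA/Fsk and RA/Fsk above LD, but no neighbouring pair passed (adjusted p = 0.0623, 0.0744 and 0.792).

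Slc1a3 B read 114, 120.7, 141 and 182 in FBS against 38.7, 30.2 and 56.1 in LD, and 39.3, 34, 20.2 and 44.6 in RA/Fsk. It rose in FBS over LD by 1.64 ± 0.40 (adjusted p = 0.00493) and was lower in RA/Fsk than in FBS by -1.89 ± 0.37 (adjusted p = 0.0014). Its HD cultures read 88.5, 33.5 and 166 and reached from the LD range to the FBS range. Slc1a3 C was dimmer, at 26.7, 31.2, 36.9 and 34.9 in FBS and 4.95, 9.3 and 11.5 in LD, with no overlap, and rose by 1.49 ± 0.32 (adjusted p = 0.0023). It too was lower in RA/Fsk than in FBS, by -1.49 ± 0.30 (adjusted p = 0.00183). Slc1a3 A, B and C correlated at r = 0.88 to 0.92 over the 14 cultures, which include the group differences. Slc1a3 D, from the same source sequence as C, stayed between 3.2 and 22.5 in all cultures, correlated with the others at -0.06 to 0.01 and passed in no comparison.

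HD culture 2 bears on how HD compares. Slc1a3 A was higher in HD than in LD by 1.12 ± 0.33 without passing (adjusted p = 0.138), though the cultures did not overlap. Without HD culture 2 the difference was 1.52 (adjusted p = 0.0411), and over all alternatives the adjusted p ran from 0.0121 to 0.42. The difference between FBS and HD passed without HD culture 4 (adjusted p = 0.0311) or RA/Fsk culture 2 (0.0427). It also passed with an offset of 32 (0.0488), without the dimmer 50% of probe sets (0.0373) and with only the 2 groups compared (0.033). The same held with arrays not averaged (0.0118) or with an RNA control value, described below, as covariate (0.0402). The range over all alternatives was 0.0118 to 0.392. The difference between RA/Fsk and HD, -0.92, passed without HD culture 2 (0.0113) or RA/Fsk culture 2 (0.0299), within 0.0113 to 0.328. Slc1a3 B passed between FBS and HD without HD culture 4 (0.0336, range 0.0336 to 0.859) and between RA/Fsk and HD without HD culture 2 (0.00744, range 0.00744 to 0.435), and Slc1a3 C in the latter without RA/Fsk culture 2 (0.0492, range 0.0354 to 0.212). The calls between FBS and LD and between RA/Fsk and FBS held for Slc1a3 A, B and C in every alternative run.

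**Figure D2:**
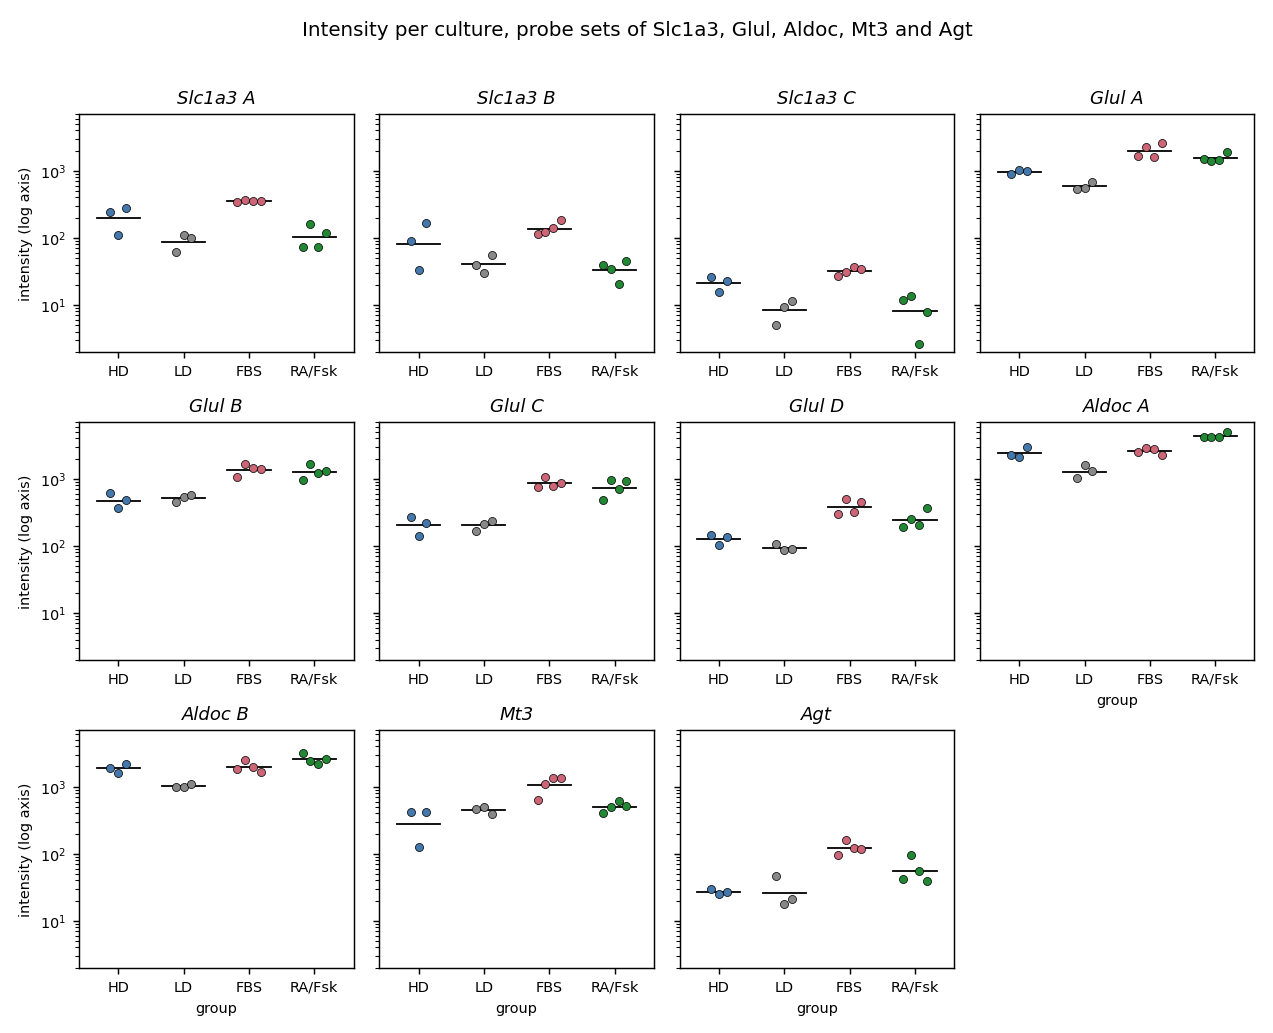
Intensity per culture (points, log axis) of 11 probe sets of Slc1a3, Glul, Aldoc, Mt3 and Agt in HD, LD, FBS and RA/Fsk, with the geometric mean of each group as a line. Levels are not comparable between panels. Slc1a3 A, Mt3 and Agt have their highest group mean in FBS, and Aldoc A has it in RA/Fsk.

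Slc1a2, the transporter that carries most glutamate uptake in mature forebrain, was dim, and its 4 probe sets did not move together (r = -0.28 to 0.18 over the 14 cultures). Slc1a2 A, the brightest, ranged from 24.4 to 43.5 in HD, from 8.3 to 57.9 in LD, from 13.6 to 50.5 in FBS and from 16.9 to 46.1 in RA/Fsk. All groups overlapped, and its largest difference, -0.54 between FBS and HD, had a 95% interval of -1.61 to 0.54. Slc1a2 B read 19.7, 33, 31.2 and 44 in FBS, 9.42, 11.9 and 12.6 in HD, and 9, 7.4, 18 and 9.1 in RA/Fsk, and its LD cultures read 45.2, 16.7 and 19.1. FBS was higher than HD by 1.14 ± 0.35 (adjusted p = 0.024) and RA/Fsk lower than FBS by -1.22 ± 0.32 (adjusted p = 0.012), in both cases without overlap of cultures. Single arrays did overlap in both cases. Slc1a2 B read 9.6 and 36.7 on the arrays of FBS culture 1, a 2.86-fold gap. On those of HD culture 4 it read 23.8 and 5.8, a 2.67-fold gap. The call against HD ended without any 1 of HD cultures 1, 2 and 4 (adjusted p = 0.0906, 0.062 and 0.0534) or FBS cultures 2, 3 and 4 (0.0545, 0.0505 and 0.0732), in a range over all alternatives of 0.0114 to 0.0906.

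Slc1a2 D went the other way. It read 3.25, 3.2, 4.74 and 4.2 in FBS against 6.65, 19.3 and 28.3 in LD, and fell by -1.26 ± 0.30 (adjusted p = 0.0048, range over the alternatives 0.000228 to 0.0468). The FBS values lie under the lower quartiles of the arrays. LD stood above FBS without overlap, but LD culture 1 lay near the HD and RA/Fsk levels, which ran from 3.6 to 11. Without LD culture 1, Slc1a2 D was also lower than LD in HD (-1.51, adjusted p = 0.0224) and in RA/Fsk (-1.36, adjusted p = 0.00596), with ranges over the alternatives of 0.0224 to 0.315 and 0.00596 to 0.294. Without RA/Fsk culture 4 the adjusted p of the latter was 0.039. Slc1a2 C, from the same source sequence, read between 4.8 and 20.2 and passed nowhere.

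Glul, which makes glutamine from glutamate, rose with both treatments in all 4 probe sets. Glul A read 1642, 2286, 1623 and 2594 in FBS and 1483, 1413, 1449 and 1919 in RA/Fsk, against 528, 562 and 673 in LD and 884, 1011 and 1007 in HD. Both treated groups lay above both progenitor groups with no overlap, and HD lay above LD with no overlap. Glul A rose over LD by 1.76 ± 0.17 in FBS (adjusted p = 9.3e-07) and by 1.40 ± 0.17 in RA/Fsk (adjusted p = 5.46e-05), and over HD by 1.04 ± 0.17 (adjusted p = 0.000204) and 0.68 ± 0.17 (adjusted p = 0.0163). HD exceeded LD by 0.72 ± 0.18 without passing (adjusted p = 0.0767). RA/Fsk minus FBS was -0.36 (95% interval -0.69 to -0.03), which did not pass after adjustment over all probe sets (adjusted p = 0.141).

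Glul B read 1078, 1632, 1432 and 1385 in FBS, 941, 1655, 1219 and 1295 in RA/Fsk, 446, 542 and 576 in LD, and 604, 362 and 476 in HD. Glul C, from the same source sequence, read 743, 1070, 785 and 867 in FBS, 474, 967, 697 and 915 in RA/Fsk, 166, 214 and 232 in LD, and 264, 141 and 219 in HD. Here HD and LD overlapped, and both treated groups stood clear of them. Glul C showed the largest rise of the 4 over LD, by 2.06 ± 0.24 in FBS (adjusted p = 7.06e-06) and 1.84 ± 0.24 in RA/Fsk (adjusted p = 0.000128), and Glul B rose by 1.39 ± 0.20 and 1.27 ± 0.20. Against HD, Glul C rose by 2.06 in FBS and 1.84 in RA/Fsk, and Glul B by 1.53 and 1.40. HD minus LD was -0.14 for Glul B and 0.00 for Glul C, so the higher HD level of Glul A was not seen in these probe sets, whose intervals were -0.59 to 0.31 and -0.55 to 0.55.

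Glul D read 299, 498, 322 and 456 in FBS, 192.5, 249, 202 and 363 in RA/Fsk, 106, 87.4 and 88.9 in LD, and 147, 102 and 135 in HD. It rose over LD by 1.98 ± 0.23 in FBS and 1.33 ± 0.23 in RA/Fsk, and alone among the Glul probe sets it was lower in RA/Fsk than in FBS, by -0.65 ± 0.21 (adjusted p = 0.0446), with overlapping cultures. That call did not hold without HD culture 4 (adjusted p = 0.0544), LD culture 3 (0.0515) or 4 (0.0534), FBS culture 2 (0.152) or 4 (0.135), or RA/Fsk culture 1 (0.122), 2 (0.0753) or 3 (0.109), in a range of 0.0091 to 0.24. The rise of RA/Fsk over HD ended for Glul A without HD culture 1 (0.0721, range 0.00291 to 0.105) and for Glul D without HD culture 2 (0.0928, range 0.00554 to 0.0928). All rises over LD, and those of FBS over HD, held in every alternative. The 4 probe sets correlated at r = 0.83 to 0.99 over the 14 cultures.

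Of 26 probe sets (16 genes) of glutamate, glutamine and GABA handling, 4 rose and 2 fell in FBS against LD, where 13.2% of all probe sets rose and 12.3% fell. In RA/Fsk against LD 1 rose and 0 fell (all probe sets 4.71% and 3.54%), and 0 passed in HD against LD (3 at an unadjusted p under 0.05, by limma). The median difference of the list in FBS was -0.14, with -0.09 for all probe sets. Glud1, glutamate dehydrogenase, rose in FBS by 1.22 ± 0.16 and 1.06 ± 0.15 in its brighter and dimmer probe sets and was lower again in RA/Fsk than in FBS, by -1.14 and -0.95. Abat, GABA transaminase, rose by 1.78 ± 0.41 in FBS and 2.10 ± 0.41 in RA/Fsk. Got1, the cytosolic aspartate aminotransferase, fell in FBS by -0.74 ± 0.17. Against HD, 2 of the list rose and 4 fell in FBS (all probe sets 11.3% and 9.70%), and 1 rose and 3 fell in RA/Fsk (4.85% and 5.32%). Between the treatments 1 was higher in RA/Fsk and 3 were lower (8.27% and 10.1%).

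Aldoc, the brain aldolase, was lowest in LD and highest in RA/Fsk. Aldoc A read 1008, 1576 and 1299 in LD, 2283, 2138 and 3017 in HD, 2477, 2907, 2736 and 2226 in FBS, and 4194, 4161, 4141 and 4943 in RA/Fsk. All LD cultures lay below all others, HD and FBS overlapped, and all RA/Fsk cultures lay above all others. Over LD it rose by 0.94 ± 0.17 in HD (adjusted p = 0.0127), by 1.01 ± 0.16 in FBS (adjusted p = 0.000131) and by 1.77 ± 0.16 in RA/Fsk (adjusted p = 2.48e-06), the last a 3.41-fold difference. RA/Fsk exceeded FBS by 0.76 ± 0.15 (adjusted p = 0.00146) and HD by 0.83 ± 0.16 (adjusted p = 0.00313). FBS and HD differed by 0.07, with a 95% interval of -0.27 to 0.41.

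Aldoc B read 992, 972 and 1092 in LD, 1912, 1601 and 2157 in HD, 1863, 2497, 1988 and 1636 in FBS, and 3145, 2450.2, 2182 and 2569 in RA/Fsk, and correlated with A at r = 0.93. LD was again below every other culture, but RA/Fsk overlapped FBS. It rose over LD by 0.88 ± 0.17 in HD (adjusted p = 0.0156), 0.95 ± 0.16 in FBS and 1.33 ± 0.16 in RA/Fsk. Its excess of RA/Fsk over FBS, 0.38 ± 0.14, and over HD, 0.45 ± 0.16, did not pass (adjusted p = 0.0877 and 0.0862). The first passed without FBS culture 2 (0.0291) or RA/Fsk culture 3 (0.0431), in a range of 0.0291 to 0.278, and the second without RA/Fsk culture 3 (0.0466), in a range of 0.0368 to 0.319. Both rises in HD rested on few cultures. Aldoc A lost its call without HD culture 4 (0.0897) or LD culture 1 (0.0603), in a range of 0.000134 to 0.0897. Aldoc B lost it without HD culture 1 (0.0555) or 4 (0.114) or LD culture 1 (0.0604) or 3 (0.0745), in a range of 0.000624 to 0.114. The rises over LD with either treatment held in every alternative.

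The other glycolysis, lactate and glycogen genes had 33 probe sets of 17 genes. In HD against LD 0 passed by limma, and 9 had an unadjusted p under 0.05. In FBS against LD 14 rose and 3 fell (median 0.36, all probe sets -0.09), where 13.2% of all probe sets rose and 12.3% fell. In RA/Fsk against LD 3 rose and 1 fell (median 0.03), where 4.71% and 3.54% did. All 3 probe sets of Pgm1, phosphoglucomutase, rose in FBS, by 0.82 ± 0.16, 1.06 ± 0.16 and 1.70 ± 0.27, and were lower in RA/Fsk than in FBS, by -1.06, -1.21 and -1.97. Pfkm, a phosphofructokinase, rose in FBS by 0.96 ± 0.16 in its brighter probe set, and Pgam1, phosphoglycerate mutase, by 0.90 ± 0.16. Both probe sets of Ldhb, a lactate dehydrogenase subunit, fell in FBS, by -0.46 ± 0.15 and -0.68 ± 0.18. Between the treatments 3 were higher and 8 lower in RA/Fsk (all probe sets 8.27% and 10.1%), where Aldoc A was higher. Against HD, 6 rose and 4 fell in FBS (11.3% and 9.70%), and 0 rose and 5 fell in RA/Fsk (4.85% and 5.32%).

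Aldh1l1, the folate enzyme, read 11.8, 13.4 and 8.87 in HD, 27.0, 11.8 and 13.9 in LD, 12.8, 8.7, 8.93 and 9.9 in FBS, and 11.4, 21.8, 13.6 and 7.5 in RA/Fsk. The groups overlapped in all comparisons. FBS minus LD was -0.53, with a 95% interval of -1.17 to 0.11. Of 14 probe sets of 10 other folate and aldehyde dehydrogenase genes, 1 rose in HD against LD, where 0.435% of all probe sets rose. Against LD, 3 rose and 1 fell in FBS (median 0.13, with 13.2% and 12.3% of all probe sets). In RA/Fsk against LD 0 passed by limma (median -0.29, 2 at an unadjusted p under 0.05), where 4.71% of all probe sets rose and 3.54% fell. Aldh2, the mitochondrial aldehyde dehydrogenase, rose by 1.54 ± 0.18 in FBS, and Mthfd1, a trifunctional folate enzyme, fell by -1.03 ± 0.15.

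**Figure D3:**
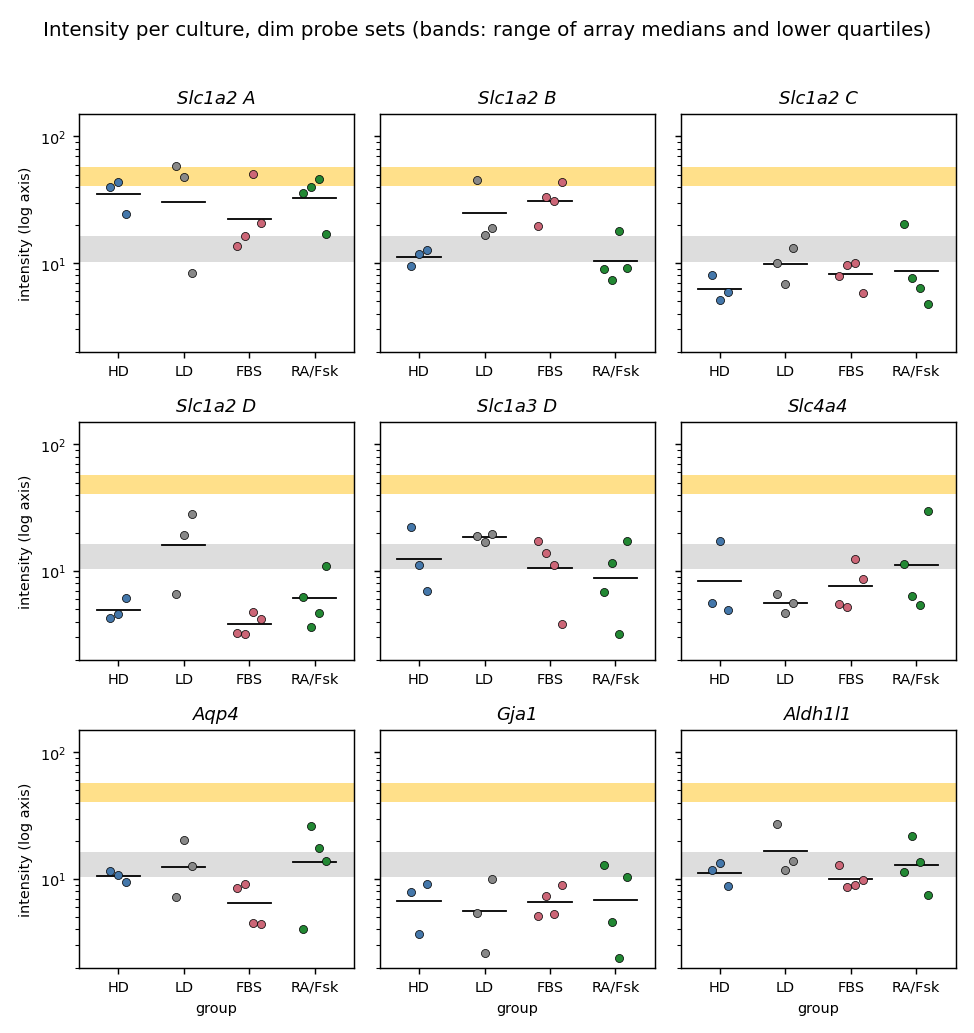
Intensity per culture (points, log axis) of 9 dim probe sets in HD, LD, FBS and RA/Fsk, with group geometric means as lines. The upper band spans the medians of the 20 arrays (40.8 to 57.25) and the lower band their lower quartiles (10.3 to 16.4). Aqp4, Gja1, Slc4a4 and Aldh1l1 lie below the upper band in every culture.

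The water channel, gap junction and bicarbonate transporter genes were dim and passed in none of the 6 comparisons, with wide intervals. Aqp4 read 11.6, 10.7 and 9.47 in HD, 7.20, 20.2 and 12.6 in LD, 8.43, 9.1, 4.54 and 4.4 in FBS, and 4, 26.2, 17.5 and 14 in RA/Fsk. FBS lay below HD without overlap, by -0.45 ± 0.37, and the difference did not pass (adjusted p = 0.495). RA/Fsk minus FBS was 0.71 ± 0.34 (adjusted p = 0.186), and without RA/Fsk culture 1, the lowest, it was 1.06 (adjusted p = 0.0188, range over the alternatives 0.0188 to 0.892). Gja1 ranged from 3.7 to 9.13 in HD, 2.6 to 10.1 in LD, 5.08 to 8.9 in FBS and 2.4 to 12.9 in RA/Fsk, all groups overlapping, with FBS minus LD at 0.12 (95% interval -0.55 to 0.79). Slc4a4 ranged from 4.98 to 17.4 in HD, 4.7 to 6.55 in LD, 5.2 to 12.4 in FBS and 5.4 to 29.7 in RA/Fsk, with RA/Fsk minus LD at 0.61 (95% interval -0.21 to 1.42).

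Among 22 probe sets of 16 other aquaporin, connexin and pannexin genes, Aqp1, a water channel of the choroid plexus, was the one that rose in FBS, by 1.93 ± 0.44 over LD (adjusted p = 0.0034). It was lower in RA/Fsk than in FBS by -2.23 ± 0.41. Gja4 (connexin 37) fell in FBS by -1.37 ± 0.45, and Gjb2 (connexin 26) fell in RA/Fsk by -1.29 ± 0.27, both against LD, and 0 of the list passed by limma in HD against LD, with 3 at an unadjusted p under 0.05. Of all probe sets, 13.2% rose and 12.3% fell in FBS against LD, and 4.71% and 3.54% in RA/Fsk against LD. The list medians were -0.36, -0.18 and -0.11 for HD, FBS and RA/Fsk against LD.

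Of 30 probe sets of 17 genes of acid-base and ion transport, the setting of Slc4a4, 11 probe sets of 6 genes rose and 0 fell in FBS against LD (median 0.54, all probe sets -0.09), where 13.2% of all probe sets rose and 12.3% fell. Against LD, 0 rose and 1 fell in RA/Fsk (all probe sets 4.71% and 3.54%). In HD 0 passed by limma, with 6 at an unadjusted p under 0.05 (all probe sets 0.435% higher and 0.423% lower). Atp1b1, a sodium pump beta subunit, rose in all 3 of its probe sets, by 1.25 ± 0.16, 2.04 ± 0.22 and 1.42 ± 0.41. Atp1b2, the glial beta subunit of the pump, rose by 1.18 ± 0.22 in its brightest probe set, and another of its probe sets was the one that fell in RA/Fsk, by -2.01 ± 0.45. Slc4a2, an anion exchanger, rose by 4.15 ± 0.60 in its dimmer probe set, and the brighter did not pass against LD. Between the treatments, 10 of the 30 were lower in RA/Fsk and 0 higher, against 10.1% and 8.27% of all probe sets.

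Mt3, the brain metallothionein, was highest in FBS. It read 633, 1085, 1324 and 1359 in FBS, 410, 505, 608 and 509 in RA/Fsk, 469, 503 and 387 in LD, and 419, 125 and 421 in HD. Every FBS culture lay above every other culture, and HD culture 2 was the lowest of the 14. Mt3 rose in FBS over LD by 1.22 ± 0.34 (adjusted p = 0.0131) and over HD by 1.89 ± 0.34 (adjusted p = 0.000521), and was lower in RA/Fsk than in FBS by -1.06 ± 0.32 (adjusted p = 0.0261). Among RA/Fsk, LD and HD, in that order, no neighbouring pair passed (adjusted p = 0.86 and 0.437). The call over LD ended without LD culture 4 (adjusted p = 0.0551, range 0.000634 to 0.0551). The call against RA/Fsk ended without FBS culture 2 (0.0597), 3 (0.0795) or 4 (0.0858) or RA/Fsk culture 1 (0.0716), 2 (0.0518) or 4 (0.0527), in a range of 0.00164 to 0.0858. The call over HD held in every alternative.

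The list of other metallothioneins and metal-handling genes had 12 probe sets of 7 genes, and 0 of these were metallothioneins, so Mt3 cannot be set beside others of its family here. In FBS against LD 4 of the 12 rose and 1 fell (median 0.36), where 13.2% of all probe sets rose and 12.3% fell. Cp, the copper-carrying ferroxidase ceruloplasmin, rose by 1.57 ± 0.30 in its brightest probe set and by 2.98 ± 0.41 in another. Hmox1, heme oxygenase 1, rose by 1.79 ± 0.59 and 2.28 ± 0.62, and Tfrc, the transferrin receptor, fell by -1.40 ± 0.38. In RA/Fsk and HD against LD, 0 of the 12 passed by limma (1 and 2 at an unadjusted p under 0.05). Relative to FBS, 3 of the 12 were lower in RA/Fsk, where 10.1% of all probe sets were lower.

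Agt, the angiotensin precursor, was also highest in FBS. It read 96.4, 161, 120.5 and 117 in FBS, 41.6, 97.1, 55.6 and 39.3 in RA/Fsk, 45.7, 17.9 and 20.9 in LD, and 29.3, 24.9 and 26.6 in HD. FBS stood clear of LD and HD, RA/Fsk stood clear of HD, and RA/Fsk culture 2 reached the lowest FBS culture. Agt rose in FBS by 2.03 ± 0.33 over LD (adjusted p = 0.000183), a 4.08-fold difference, and by 1.99 ± 0.33 over HD (adjusted p = 0.000256). RA/Fsk was lower than FBS by -1.08 ± 0.31 (adjusted p = 0.0196). RA/Fsk exceeded LD by 0.94 ± 0.33 and HD by 0.91 ± 0.33 without passing (adjusted p = 0.0983 and 0.104), and HD and LD differed by 0.04 (95% interval -0.72 to 0.79). Without LD culture 1, the highest of LD, the rise of RA/Fsk over LD passed (1.30, adjusted p = 0.0314, range 0.0314 to 0.317). The call between RA/Fsk and FBS ended without FBS culture 2 (0.0745) or RA/Fsk culture 1 (0.0547) or 4 (0.0642). It also ended with arrays not averaged (0.0585) and with an RNA control value, described below, as covariate (0.054). The range over all alternatives was 0.00478 to 0.0745.

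Of the rest of the renin-angiotensin system, 21 probe sets of 11 genes, 0 rose and 1 fell in FBS against LD (all probe sets 13.2% and 12.3%), and 0 passed by limma in HD or RA/Fsk against LD (0 and 1 at an unadjusted p under 0.05). The fall was that of Thop1, a peptidase that cleaves angiotensins, by -0.69 ± 0.15. The list medians, -0.02, -0.05 and 0.03, were close to those of all probe sets.

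**Figure D4:**
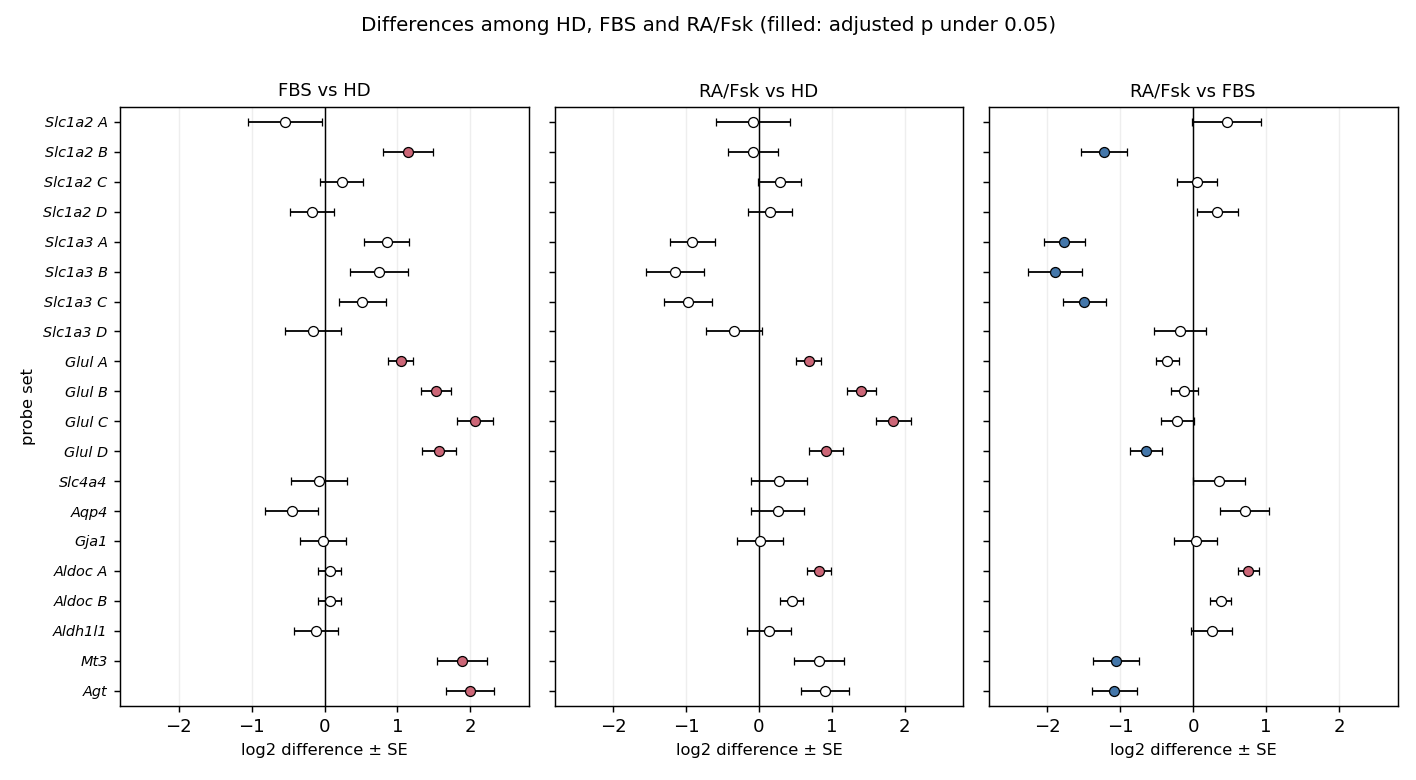
Log2 difference (points, with SE as bars) of the 20 probe sets between FBS and HD, RA/Fsk and HD, and RA/Fsk and FBS. Filled points passed at an adjusted p under 0.05, red for higher and blue for lower in the group named first. All 4 Glul probe sets are red against HD with either treatment, and Aldoc A is the red point between the treatments.

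Pairs of arrays with the same group and number showed how far single arrays can differ. They were taken as repeats of a culture, which the labels do not state. There were 6 such pairs, with r = 0.951 to 0.975 over all probe sets. The arrays labelled 3 and 3r of FBS culture 3 had the largest median gap, 0.43 log2, against 0.20 to 0.34 for the others. In that culture Mt3 read 731 on array 3 and 2394 on array 3r, a 3.26-fold gap, and Glul A read 2657 and 990.2, a 2.67-fold gap in the other direction. With array 3 alone for that culture Glul A was lower in RA/Fsk than in FBS (-0.54, adjusted p = 0.0197, range over the alternatives 0.0197 to 0.682). With array 3r alone, Glul A and Glul D did not pass between RA/Fsk and HD (0.105 and 0.0525). With array 3 alone, Mt3 did not pass between RA/Fsk and FBS (-0.85, adjusted p = 0.0736, range 0.00164 to 0.0858). Agt differed 2.52-fold between the arrays of HD culture 1, 2.13-fold in culture 2 and 2.55-fold in culture 4, at intensities of 14.8 to 49.5.

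**Figure D5:**
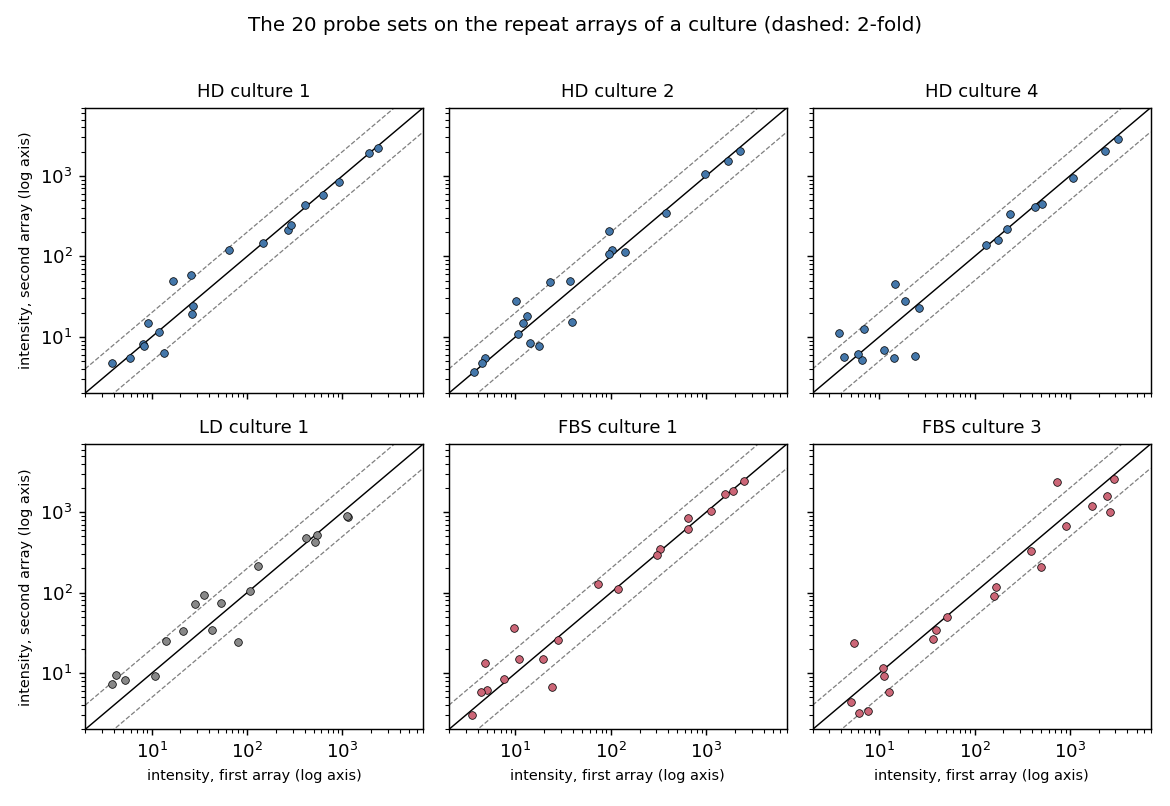
Intensity of the 20 probe sets on the first (x) and second (y) array of the 6 pairs that share a group and number. Both axes are log, with equality as a solid line and a 2-fold gap as dashed lines. In FBS culture 3, Mt3 lies far above the line, at 731 and 2394, and Glul A below it, at 2657 and 990.2.

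Checked against the defining markers that were measured, the labels were met only in part. Gfap had 0 probe sets in the annotation used. S100b, a calcium-binding protein of astrocytes, had 2 probe sets. The brighter rose over LD by 2.54 ± 0.18 in FBS and by 2.85 ± 0.18 in RA/Fsk, from a geometric mean of 321 in LD to 1893 and 2355. The dimmer passed in neither of these comparisons. Vim, the intermediate filament vimentin, did not pass against LD (0.33 and -0.46) and was lower in RA/Fsk than in FBS by -0.79 ± 0.17. Nes, the progenitor filament nestin, passed in no comparison in either of its probe sets. Fabp7, a fatty acid binding protein of radial glia, fell in FBS by -1.79 ± 0.27, and its level in RA/Fsk differed from LD by 0.44 ± 0.27 (adjusted p = 0.404). Of 17 neuronal probe sets (8 of 13 markers measured), 0 rose and 1, Gap43, fell in RA/Fsk, the group labelled neurons, against LD. Of all probe sets, 4.71% rose and 3.54% fell there. In FBS against LD 2 of the 17 rose (Nefm by 2.26 ± 0.58 and a Map2 probe set by 0.68 ± 0.24), where 13.2% of all probe sets rose. The summed intensity of the neuronal probe sets was 1461 to 1798 in RA/Fsk and 1688 to 1816 in LD. Of 9 progenitor probe sets (5 of 9 markers), 3 fell in FBS against LD (Fabp7, Hes5 and Notch1), where 12.3% of all probe sets fell. In RA/Fsk against LD 0 of them passed by limma, with 1 at an unadjusted p under 0.05. The astrocyte marker list had 19 probe sets, all of them members except the 2 of S100b, so its sum is no separate check of the labels. It summed to 10203 to 13960 in FBS, 12524 to 14620.2 in RA/Fsk, 6154 to 8251 in HD and 3926 to 4597 in LD.

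Of 44 probe sets of 27 other astrocyte genes, 15 rose and 2 fell in FBS against LD (median 0.27), where 13.2% of all probe sets rose and 12.3% fell. In RA/Fsk against LD 5 rose and 3 fell (median 0.16), against 4.71% and 3.54% of all, and in HD 2 rose and 0 fell (median 0.05), against 0.435% and 0.423%. Cd44, a hyaluronan receptor, rose in FBS by 4.57 ± 0.21, Id3, an inhibitor of basic helix-loop-helix factors, by 3.15 ± 0.38 in its brighter probe set, and Prdx6, a peroxiredoxin, by 1.02 ± 0.12. Ndrg2 rose in HD by 1.58 ± 0.31 and in RA/Fsk by 1.98 ± 0.29. Acsl3, an acyl-CoA synthetase, fell in FBS by -1.48 ± 0.15, and both probe sets of Cst3, cystatin C, fell in RA/Fsk, by -1.28 ± 0.17 and -1.76 ± 0.18. Between the treatments, 2 of the 44 were higher in RA/Fsk and 16 lower, against 8.27% and 10.1% of all probe sets.

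Some markers of other cell types differed between groups. Of 18 fibroblast and smooth muscle probe sets (8 of 8 markers measured), 3 rose in FBS against LD, where 13.2% of all probe sets rose and 12.3% fell. They were both of Tagln (3.45 ± 0.38 and 4.67 ± 0.31) and 1 of Acta2. The summed intensity was 1045 to 1694 in FBS against 504 to 619 in LD, 393 to 526 in HD and 378 to 645 in RA/Fsk. Of 7 Schwann and neural crest probe sets (4 of 5 markers), 1 of the pair for Ngfr, the low-affinity neurotrophin receptor, rose in FBS by 3.62 ± 0.30, while the other, the brighter in LD, differed by -0.14 (adjusted p = 0.643). A probe set of Erbb3, a neuregulin receptor, rose in RA/Fsk by 0.81 ± 0.21 (adjusted p = 0.0231), where 4.71% of all probe sets rose. The list's sum was 2674 to 3298 in FBS and 1405 to 2490 in the other groups. Of 19 oligodendrocyte lineage probe sets (9 of 12 markers), 1 rose and 4 fell in FBS against LD (all probe sets 13.2% and 12.3%). In RA/Fsk against LD 2, Cnp and Mbp, rose and 0 fell (all probe sets 4.71% and 3.54%). Their sums were 1951 to 2412 in FBS, 3068 to 5343 in RA/Fsk, 2550.0 to 3345 in LD and 2747 to 3379 in HD. By limma, 0 microglial (16 probe sets, 8 of 12 markers) and 0 endothelial probe sets (5, for 4 of 6 markers) passed in any of the 6 comparisons, with at most 2 and 1 at an unadjusted p under 0.05. The microglial sums were 183 to 272 in HD, 239 to 382 in LD, 218 to 277 in FBS and 211 to 397 in RA/Fsk. No value of these markers was at 0. Their part in the differences of the 10 genes was not tested.

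RNA control probe sets also differed between groups. The log2 difference between the 5′ and 3′ GAPDH controls averaged -0.06 in HD and FBS, -0.33 in LD and -0.29 in RA/Fsk. The means of HD and FBS thus stood apart from those of LD and RA/Fsk. Single RA/Fsk cultures overlapped with HD and FBS, but every LD culture lay below every HD and FBS culture. RA/Fsk ran from -0.47 to -0.11, LD from -0.47 to -0.21, HD from -0.20 to 0.05 and FBS from -0.16 to -0.01. The mean of this control moved with every comparison of HD or FBS with LD or RA/Fsk. With each culture's value of this control as a covariate, 12 of the 20 probe sets passed in FBS against LD and 6 in RA/Fsk against LD, as without it. By contrast 1, Aldoc A, passed in HD against LD, 6 in RA/Fsk against HD and 5 in RA/Fsk against FBS. Between RA/Fsk and FBS, Slc1a2 B (adjusted p = 0.092), Glul D (0.232) and Agt (0.054) lost their calls with the covariate. In HD against LD, Aldoc A then differed by 1.15 (adjusted p = 0.0178, range over the alternatives 0.000134 to 0.0897) and Aldoc B by 0.79 (adjusted p = 0.094, range 0.000624 to 0.114). The antisense controls averaged 4.95 log2 in HD, 5.25 in LD, 4.93 in FBS and 5.27 in RA/Fsk. LD cultures (5.12 to 5.40) lay above all FBS cultures (4.84 to 5.02). The part of this background in the differences of dim probe sets was not tested.

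The genes whose levels over the 14 cultures were most like each member were picked from 3638 brighter probe sets with a single symbol, and their correlations include the differences between groups. Slc1a3 A was most like Pdlim5 and Lims1 (r = 0.93 for each), both LIM domain proteins. Glul A was most like Sod3, the extracellular superoxide dismutase (r = 0.95), and Cd9, a tetraspanin (r = 0.94). Aldoc A was most like Abhd14b (r = 0.94) and Gstt2 (r = 0.92), Mt3 like Tst and P4ha1 (r = 0.87 for each), and Agt like Zhx2 (r = 0.96) and Tnfrsf21 (r = 0.95). The dim probe sets of Slc1a2, Slc4a4, Aqp4, Gja1 and Aldh1l1 had best matches at r = 0.77 to 0.86, which at such signals describe these arrays only.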

How the data were processed

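The deposited values are linear intensities, 1 per probe set and array. Their mean, with 2% trimmed at each end, was 200.3 to 200.5 on every array, so they appear scaled to a common mean, and the software that made them is not given in the sources used here. The number of arrays limits the precision.

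Of 8799 probe sets, 59 controls were left out and 8740 tested: 7006 carried 1 gene symbol in the platform annotation, 308 several and 1426 none. Values were converted to log2(intensity + 4.99), the offset being 10% of the median positive value. Arrays of a group with the same number were averaged, which gave 14 cultures. All 4 groups were fitted together in limma 3.58.1 (R 4.3.3) with an intensity trend in the variance (10 residual and 6.13 prior degrees of freedom), Benjamini-Hochberg adjustment over all 8740 probe sets and a threshold of 0.05. The procedure was tested on simulated data.

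LD and RA/Fsk cultures with the same number deviated together (r = 0.33, 0.16 and 0.11 for the 3 pairs), a pairing taken from the numbers in the labels. Over all groups, pairs with different numbers ran from -0.20 to 0.15, a range that holds the lowest of these 3. With the number as a replicate block 6 of the 20 probe sets passed in RA/Fsk against LD, as without it.

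The 10 genes and the lists were chosen with earlier results of these data known. From each list, up to 4 probe sets that passed in a comparison could be named, by smallest adjusted p, and from the whole array the 2 genes most correlated with each member's brightest probe set. The alternatives were other offsets, quantile normalization, median centring, a filter on dim probe sets, single arrays, other fits and leaving out each culture.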

Additional observations from a re-analysis of the deposited data

Results flagged for a closer look

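In the 40 groups of 4 cultures among the 20 probe sets, 2 had a culture far from the other 3 by Dixon's test (critical value 0.829), and chance gives about 1 in 20 groups. Both were the highest value of RA/Fsk culture 4: Glul A read 1919 there, where the next culture read 1483, and Aldoc A read 4943, where the next read 4194.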

How the results depend on the processing

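Over 26 alternatives, 14 of which leave out 1 culture, 30 of the 40 called differences of the 20 probe sets kept their call, 10 lost it in at least 1 and 0 reversed. Of the 80 that were not called, 15 passed in at least 1 alternative and 37 changed sign in at least 1. For single probe sets, mostly the runs without 1 culture are named above. Some of those calls also changed in other alternatives, which the ranges include. HD against LD was least settled: its count of 2 became 1 with quantile normalization, a replicate block, the GAPDH 5′ to 3′ control value as covariate or only the 2 groups compared, 0 with no intensity trend and 6 with arrays not averaged into cultures. RA/Fsk against HD moved from 5 to 9 with arrays not averaged and to 3 with array 3r alone for FBS culture 3. RA/Fsk against FBS moved from 8 to 5 with arrays not averaged or with the GAPDH covariate. Leaving out 1 culture gave 0 to 3 for HD against LD, 11 to 12 for FBS against LD, 6 to 8 for each of RA/Fsk against LD, FBS against HD and RA/Fsk against FBS, and 4 to 7 for RA/Fsk against HD. The causes were not tested. Over all probe sets, the 75 calls of HD against LD became 465 with arrays not averaged, 48 with array 3r alone and 23 to 110 without 1 culture. With only the 2 groups compared, which has fewer samples, RA/Fsk against LD fell from 721 to 362 and RA/Fsk against HD from 889 to 502, and without 1 culture the latter was 559 to 886. Outside LD and RA/Fsk, 15 same-numbered pairs correlated at -0.09 to 0.14. All 55 pairs with different numbers ran from -0.20 to 0.15. Whether same-numbered pairs outside LD and RA/Fsk share more than a number was thus not settled. With the replicate block there, Aldoc B lost its call in HD against LD (adjusted p = 0.0585, range over the alternatives 0.000624 to 0.114), Slc1a2 B in FBS against HD (0.0527, range 0.0114 to 0.0906), and Glul A passed in RA/Fsk against FBS (0.0473, range 0.0197 to 0.682). It changed no other call of the 20. Leaving out the dimmer 50% of probe sets gives no value for the dim ones. The alternative with array 3 alone for FBS culture 3 was added after the values were seen.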
